A study of Homo sapiens with 3 samples.

Results

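Collagen genes encode the triple-helical chains of the extracellular matrix. They were taken here as every protein-coding RefSeq gene whose symbol reads COL, a number, A and a number, which gave 44 of 19974 protein-coding genes on chromosomes 1 to 22 and X. By the type of chain, 11 were fibrillar (types 1, 2, 3, 5, 11, 24 and 27), 6 were the basement membrane genes of type 4, and 27 belonged to other types. The study mapped IRF3, a transcription factor that switches on antiviral genes, in BT549, an established line from a basal-like breast cancer, by ChIP-seq, in which DNA bound by a protein is pulled down with an antibody and sequenced. All cells had been infected with lentivirus to express Cas9 with a guide RNA and were then transfected with polyI:C, a double-stranded RNA made to imitate that of a virus. The groups differed in the guide RNA, which was a control guide, guide 1 against SMAD3 or guide 2 against SMAD3, and each group held 1 library. SMAD3 carries TGF-beta signals to the nucleus. The control title names BT549 and the other titles BT549-caSmad3, so the parent line and the guide cannot be told apart. No label states whether the cells were pools or clones, and peak lists do not measure how far SMAD3 was lost.

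The fibrillar collagens form the tensile fibrils of connective tissue, and type 4 collagen forms the sheet-like network of basement membranes. FACIT collagens bind to the surface of fibrils, type 6 collagen forms beaded filaments, and several other types are anchored in membranes or form networks. Fibrillar collagen genes are textbook targets of TGF-beta and its SMAD proteins in mesenchymal cells. The type 4 genes lie in 3 head-to-head pairs, each pair reading outwards from a shared stretch of promoter DNA.

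The authors deposited 1 peak list per library: 18028 peaks in control, 16811 in guide 1 and 19609 in guide 2, with median widths of 396, 406 and 424 bp. Read depth is unknown, and the length of a list depends on it. With 1 library per group no difference between groups had a replicate check, and none was tested. Each peak carries a score from the authors without a stated scale, so it is given as the share of peaks in the same list that scored lower, and such shares are not compared between lists as a change. Of 5 genes that mark mesenchymal lines such as BT549 (VIM, FN1, SPARC, CD44 and AXL), all 5 were marked in every list, which means here that a peak lay no more than 10 kb from either end of the gene. Of 4 epithelial genes (EPCAM, CDH1, ESR1 and KRT8), 1 was marked, CDH1, where the strongest peak lay 316 bp from an end of TANGO6 in control. The strongest AXL peak was at the AXL end in control (19 bp), and at another site closest to HNRNPUL1 in guide 1 (945 bp) and guide 2 (957 bp). Only the strongest peak of each list was placed, so a weaker peak at the other site may be present. Of all protein-coding genes 52.3% were marked in every list. A peak does not measure expression.

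The following stretches of promoter DNA are shown because 4 carry a peak in every list and the remaining one, between COL4A4 and COL4A3, carries none. They are from the RefSeq promoter table (GRCh38.p14, the coordinates of hg38), 5′ to 3′ in the direction of the gene named last or alone, and stop before the start site. Capitals mark matches, on either strand, to 6 motifs that were searched letter by letter. For interferon signalling this was the core of the interferon response element, a pair of GAAA with 2 bases between them. For the AP-1 transcription factors, which respond to growth and stress signals, it was TGANTCA. For the SMAD proteins it was the short element GTCTG. For NF-Y, a factor of many housekeeping promoters, it was CCAAT. For the general machinery it was the TATA box, TATAAA, and for SP1 and related factors it was the GC box, GGGCGG. No match overlapped another.
COL4A1 to COL4A2, chr13:110307158-110307283, plus strand: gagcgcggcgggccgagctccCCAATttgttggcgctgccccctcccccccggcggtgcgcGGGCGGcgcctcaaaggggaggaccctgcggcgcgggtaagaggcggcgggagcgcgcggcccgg
COL4A5 upstream, chrX:108439588-108439837, plus strand: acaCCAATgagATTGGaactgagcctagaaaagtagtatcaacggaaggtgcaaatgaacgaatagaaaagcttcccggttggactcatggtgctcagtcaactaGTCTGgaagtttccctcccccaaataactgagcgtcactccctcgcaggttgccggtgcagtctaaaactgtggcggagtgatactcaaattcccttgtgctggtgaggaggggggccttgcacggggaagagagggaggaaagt
COL4A4 to COL4A3, chr2:227164489-227164623, plus strand: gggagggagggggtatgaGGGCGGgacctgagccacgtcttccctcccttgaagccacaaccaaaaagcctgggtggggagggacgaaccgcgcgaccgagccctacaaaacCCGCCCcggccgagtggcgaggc
COL5A1 upstream, chr9:134641553-134641802, plus strand: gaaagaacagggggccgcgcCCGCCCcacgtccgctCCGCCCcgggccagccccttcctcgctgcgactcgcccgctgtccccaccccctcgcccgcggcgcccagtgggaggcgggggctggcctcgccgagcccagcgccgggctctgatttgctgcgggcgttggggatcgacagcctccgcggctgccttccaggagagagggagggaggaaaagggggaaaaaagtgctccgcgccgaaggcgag
COL12A1 upstream, chr6:75206054-75206303, minus strand: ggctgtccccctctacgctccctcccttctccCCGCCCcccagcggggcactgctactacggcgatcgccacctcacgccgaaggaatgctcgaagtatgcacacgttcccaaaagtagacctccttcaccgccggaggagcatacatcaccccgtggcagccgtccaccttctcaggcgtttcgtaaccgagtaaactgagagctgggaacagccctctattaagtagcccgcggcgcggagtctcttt

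The stretches differed in base composition and in the motifs they hold. G and C made up 80.2% of the 126 bases between COL4A1 and COL4A2, with 20 CpG sites, and 51.2% of the 250 bases before COL4A5, with 8 CpG sites. The stretch between COL4A4 and COL4A3 (135 bases) was 68.1% G and C, that of COL5A1 74.0% and that of COL12A1 61.2%. The interferon response core, the AP-1 motif and the TATA box had no match in the 250 bases before any of COL4A1, COL4A2, COL4A3, COL4A4, COL4A5, COL4A6, COL5A1 and COL12A1. Those 3 motifs were found in 2.71%, 5.0% and 9.36% of the 15813 protein-coding promoters of that length. The GC box, found in 55.8% of promoters, had 2 matches before COL4A1, 1 before COL4A2, 2 before COL4A3, 2 before COL5A1 and 1 before COL12A1. CCAAT, found in 34.4%, had 1 match before COL4A1 and 1 before COL4A2, whose windows overlap, 2 before COL4A5 and 3 before COL4A6. The windows of COL4A5 and COL4A6 overlap too, and both COL4A5 matches are among those counted before COL4A6. GTCTG, found in 36.9%, had 1 match each before COL4A4, COL4A5 and COL4A6, and the match before COL4A5 and COL4A6 is the same site. The COL4A4 start site used was at chr2:227164205, and the COL4A4 span ends at 227164488. Its 250 bases thus lay inside that span and outside the stretch shown between COL4A4 and COL4A3. A match is a description of the letters and not a binding site.

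The basement membrane genes divided by pair, with peaks at 2 of the 3 shared promoters in every library and none at the third. Between COL4A1 and COL4A2, which encode the ubiquitous chains of basement membrane collagen, every list had 1 peak that covered the whole 126-base stretch. It lay at chr13:110306933-110307366 in control, chr13:110307051-110307483 in guide 1 and chr13:110306970-110307507 in guide 2, and scored above 36.3%, 8.93% and 33.7% of the respective list. The peak midpoint was 8 bp inside the COL4A1 span in control, and in both guides it was closer to COL4A2, at 17 and 46 bp. The pair COL4A5 and COL4A6, on the X chromosome, also had 1 peak per list, which scored above 58.8%, 33.3% and 48.6%. Their spans are 379 bases apart, and the peak sat at the COL4A5 side: its midpoint was 16, 41 and 46 bp from the COL4A5 start and 396, 339 and 334 bp from the COL4A6 start. COL4A3 and COL4A4, whose chains with that of COL4A5 form the collagen of the kidney filter, had no peak within 10 kb of an end or inside the span in any list.

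**Figure D1:**
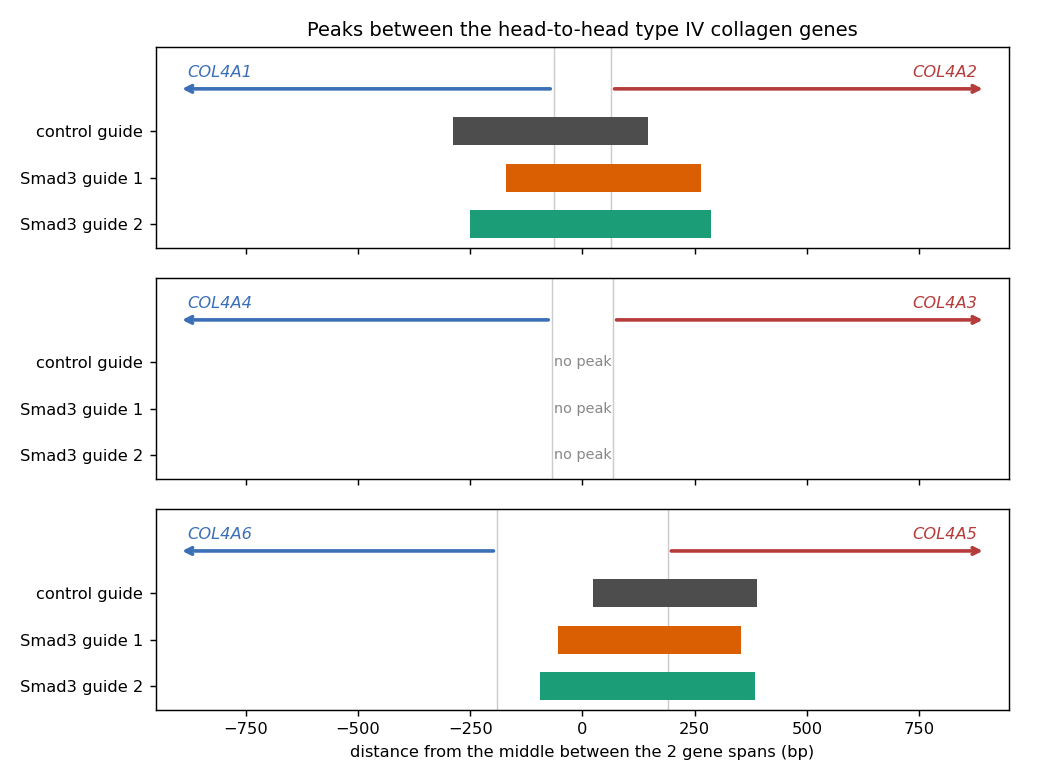
Peaks between the head-to-head pairs of type 4 collagen genes. The x axis gives the distance in bp from the middle between the spans of each pair, arrows show the direction of the genes, grey lines the gene starts, and bars the extent of each peak in the control, guide 1 and guide 2 lists. COL4A1 with COL4A2 and COL4A5 with COL4A6 have 1 peak in each list, and COL4A4 with COL4A3 has none.

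Within the spans of the type 4 genes, further peaks lay far from the starts. COL4A6 had a pair of neighbouring peaks in every list, with midpoints 41244 and 39596 bp from the start in control. The one at chrX:108397745-108398544 scored above 57.8% of the control list, 79.5% of the guide 1 list and 73.6% of the guide 2 list. The one at chrX:108399400-108400574 scored above 59.7%, 75.7% and 80.7%, so both ranked higher than the peak at the shared promoter in the guide lists. In control the first ranked below that peak and the second above it. COL4A2 had a peak deep inside in every list, 89809 bp from its start in control (chr13:110396829-110397272, above 28.2%, 36% and 47.7%). A further COL4A2 peak, 105005 bp from the start, was in the guide 2 list alone, which is the longest list.

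Among fibrillar genes, peaks at a gene end were found in every library at COL1A2, COL5A1 and COL5A2. COL5A1 and COL5A2 encode the chains of type 5 collagen, which starts and limits fibril growth, and COL1A2 encodes a chain of type 1 collagen, the main collagen of bone, skin and tendon. At COL5A1 the peak over the start (chr9:134641620-134642038) scored above 66% of the control list, 66.6% of the guide 1 list and 58.8% of the guide 2 list. A second peak before the start, at 373 bp in control and 389 bp in guide 1, scored above 36.3% and 55.7% of those lists and had no counterpart in guide 2. Another peak, 3011 bp inside the gene in control and 2944 bp inside in guide 2, scored above 6.43% and 14.9% and had none in guide 1. At COL1A2 the peak (chr7:94394686-94395135) had its midpoint 12, 15 and 45 bp from the lower-coordinate end and scored above 24.6%, 33.3% and 41.4%. The next protein-coding gene end, of CASD1, was 114902 bp away in control. The COL5A2 peak (chr2:189440813-189441724, above 79.2%, 66.6% and 73.1%) lay 166, 166 and 151 bp outside its upper end but also 197, 197 and 212 bp from an end of WDR75, whose promoter entry it overlapped. The COL5A2 span in RefSeq also lists predicted transcripts, so that end need not be the start used in these cells. For the same reason, peaks counted below as inside COL5A2 lie inside this span and may lie outside the transcript used.

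For the other fibrillar genes marked in all lists, the peak lay at a neighbour. Near COL1A1, which encodes the other chain of type 1 collagen, the peak was 5429 bp beyond the lower end in control and 2744 bp from SGCA, a muscle sarcoglycan gene. It scored above 28.2%, 11.5% and 24% of the control, guide 1 and guide 2 lists. No list had a peak closer to COL1A1 or inside it. The peak near COL2A1, of cartilage collagen, was 55 bp from an end of TMEM106C in control, and that near COL11A2, another cartilage collagen, was 146 bp from an end of RXRB, a retinoid X receptor gene. The first scored above 33.1%, 6.67% and 27.7% of the control, guide 1 and guide 2 lists, and the second above 73.3%, 60.5% and 73.1%. COL3A1, COL5A3, COL11A1 and COL27A1 had no peak near an end or inside in any list. COL3A1 encodes the collagen of vessel walls and loose connective tissue.

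Of the 27 other collagens, 7 were marked in all lists, and at 3 of them a peak was closest to the collagen gene itself. COL12A1, a FACIT collagen gene, had a peak over its start (chr6:75205934-75206375) that scored above 28.2%, 40% and 49.4%. COL16A1, of the same class, had a peak 2742, 2712 and 2593 bp inside the gene from its start (chr1:31701013-31701836) that scored above 80.2%, 79% and 92.6%. COL6A1, of the beaded filament collagen, had one 372, 368 and 364 bp outside its lower end, overlapping the non-coding gene LOC105372841 (chr21:45981285-45981528, above 47.2%, 55.7% and 54.1%). COL6A2, whose chain assembles with that of COL6A1, had none in any list.

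At the other 4, the peaks lay closer to another gene in each list. Near COL8A2, of an endothelial network collagen, the peak lay 44 bp from an end of ADPRS in control and scored above 88.8%, 94.8% and 94.9%, the highest shares of any peak near a collagen gene in each list. It was 6303 bp outside the COL8A2 span in control, beyond the end away from the start and 36286 bp from that start. Peaks near COL9A3 lay at OGFR, those near COL23A1 at PHYKPL, and those near COL7A1, the anchoring fibril gene of skin, inside PFKFB4 and closest to UCN2. The strongest peak near COL9A3 scored above 55.8%, 14.1% and 14.9% of the control, guide 1 and guide 2 lists. That near COL7A1 scored above 55.8%, 53.6% and 66.7%. The peak near COL23A1 shared by the lists scored above 28.2%, 37.4% and 27.7%. These COL7A1 and COL23A1 peaks also lay beyond the end away from the start, 38005 and 357653 bp from the starts in control. A second COL16A1 peak in every list lay 207 bp from PEF1 in control.

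Neither near an end nor inside was there a peak in any list for 19 of the 44 collagen genes. Beside the 4 fibrillar genes, COL4A3, COL4A4 and COL6A2, these were 12 genes of other types. COL6A5 and COL6A6 encode further type 6 chains, and COL9A1, COL9A2, COL14A1, COL19A1 and COL22A1 are FACIT genes. COL10A1 is a marker of cartilage that turns to bone, COL17A1 anchors the epidermis, COL18A1 encodes the precursor of endostatin, and COL25A1 encodes a membrane collagen of neurons. The last was COL26A1. A further 5 genes had peaks inside only, which were COL6A3, COL13A1, COL21A1, COL24A1 and COL28A1.

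In counts, the control list marked 19 of the 44 collagen genes (43.2%), guide 1 marked 17 (38.6%) and guide 2 marked 18 (40.9%). Of all protein-coding genes the shares were 56.5%, 53.6% and 56.2%. In every list at once, 17 collagen genes (38.6%) were marked, against 52.3% of protein-coding genes. They form 15 loci, since each marked type 4 pair shares a peak. By class these were 6 of 11 fibrillar, 4 of 6 basement membrane and 7 of 27 other genes, and for the first 2 classes the counts were equal in each list. Collagen genes are long, and 26 of them span over 100 kb. Of those, 34.6%, 30.8% and 34.6% were marked, against 49.7%, 46% and 49.8% of protein-coding genes of that length, and 8 were marked in all lists, against 43.9%. Of the 16 collagens of 20 to 100 kb, 56.2%, 50% and 50% were marked, against 64.5%, 61.4% and 64%, and 8 were marked in all lists, against 59.9%. COL1A1 was 1 of the 2 collagens under 20 kb, and 1 of the 2 was marked in each list and in all, against 52.3%, 49.9%, 52% and 49%. Over 20 kb the shares of collagen genes were below those of genes of like length, and no test was made of the difference.

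How close the peaks lay to the collagen ends varied. For 7 of the 17 genes, every peak within 10 kb was closer to an end of a gene that is not a collagen, and 9 of the 17 had a peak midpoint within 400 bp of their own end. Of the 32 collagen genes with a RefSeq promoter entry, 6 had a peak on the 300 bases around the start in each list, and the same 6 did in all: COL4A1, COL4A2, COL4A5, COL4A6, COL5A1 and COL12A1. Of the 15813 protein-coding genes with an entry, 44.4%, 41% and 43.4% did, and 39.6% in all lists. The 12 collagen genes without an entry include COL1A2, COL5A2 and COL6A1, each with a peak midpoint within 400 bp of an end. At COL5A2 that peak also overlapped the promoter entry of WDR75. The collagen share is therefore of a part of the set and does not serve as a comparison for all collagens.

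**Figure D2:**
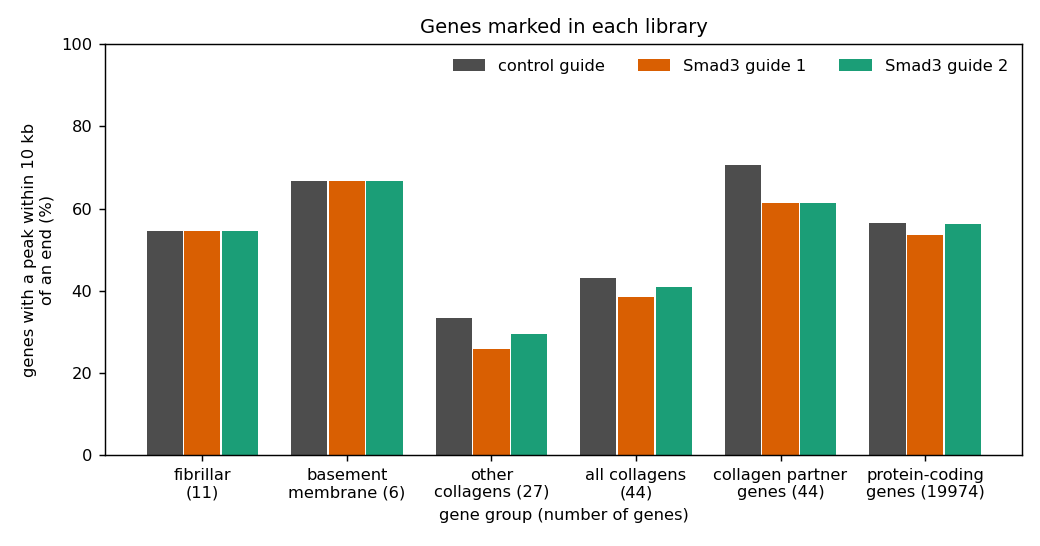
Percentage of genes with a peak within 10 kb of an end, by gene group (x axis, number of genes in brackets) and library (bar colour). Fibrillar and basement membrane genes have equal bars in the 3 libraries, at 54.5% and 66.7%, and the other collagens lie lower, between 25.9% and 33.3%.

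Presence near an end differed between the lists for 3 collagen genes, all of other types and all with weak peaks. COL8A1, a network collagen gene of vessels and cornea, had a peak in control alone, 950 bp outside its lower end (chr3:99637491-99637797), which scored above 10.8% of the list. A second COL8A1 peak, 20573 bp inside, was also in control alone and scored above 2.24%. COL20A1 was marked in control alone by a peak above 0.544% of the list that lay 250 bp from an end of ARFGAP1 and 3146 bp from COL20A1. COL15A1, whose protein lies between basement membranes and the stroma, was marked in guide 2 alone, 8673 bp before its start, by a peak above 7.88%. Over all protein-coding genes, 1.44% were marked in control alone, 0.991% in guide 2 alone and 0.641% in both guides without control. No collagen gene was marked in both guides and not in control, nor in guide 1 alone, in control and guide 1 or in control and guide 2 (backgrounds 0.195%, 0.496% and 2.28%).

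Inside the genes, over 10 kb from both ends, collagens held 20 peaks in control, 21 in guide 1 and 30 in guide 2, in 12, 10 and 11 genes. The 42 collagen genes over 20 kb could hold such a peak, and 10 did in all lists at once, against 14.8%, 14.3% and 16.6% of protein-coding genes over 20 kb in each list and 12.8% in all. Of the 26 collagen genes over 100 kb, 11, 9 and 10 held one and 9 did in all lists, against 30.6%, 30.6%, 34.7% and 27% of protein-coding genes of that length. Per Mb of inner span there were 3.29, 3.45 and 4.93 peaks in collagens and 2.93, 2.88 and 3.69 in all protein-coding genes. COL21A1 and COL5A2 held a large part of these peaks, with 5, 5 and 8 peaks in the first and 3, 5 and 6 in the second. Without that pair, named after their values were seen, the collagens held 2.23, 2.05 and 2.98 peaks per Mb.

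COL21A1, a FACIT gene that spans 337539 bp, without a peak at either end, held 5 peaks common to the 3 lists. The strongest in control was at chr6:56101015-56101677 and scored above 76.5%, 77.5% and 85.4% of the control, guide 1 and guide 2 lists. The one at chr6:56223925-56224401 scored above 42.8%, 78.6% and 87.7%. COL24A1, a fibrillar gene of developing bone and cornea, likewise had no peak at its ends and 2 common peaks deep inside, at 118284 and 121138 bp from its lower end in control, the second above 57.8%, 60.5% and 67.4%. COL28A1 held 1 common peak, above 63.5%, 60.5% and 74.6%. COL13A1, a transmembrane collagen gene, held 1 above 28.2%, 37.4% and 28.9%, and COL6A3 held 1 above 6.43%, 24.2% and 16.4%. COL15A1 held a peak in control (above 38%) and guide 2 (above 31.2%) that the guide 1 list lacked (chr9:98998388-98998658). In COL5A2 the strongest inner peak shared by the lists (chr2:189276144-189276743) scored above 29.9%, 27.3% and 45.7%. Exons and introns were not told apart.

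**Figure D3:**
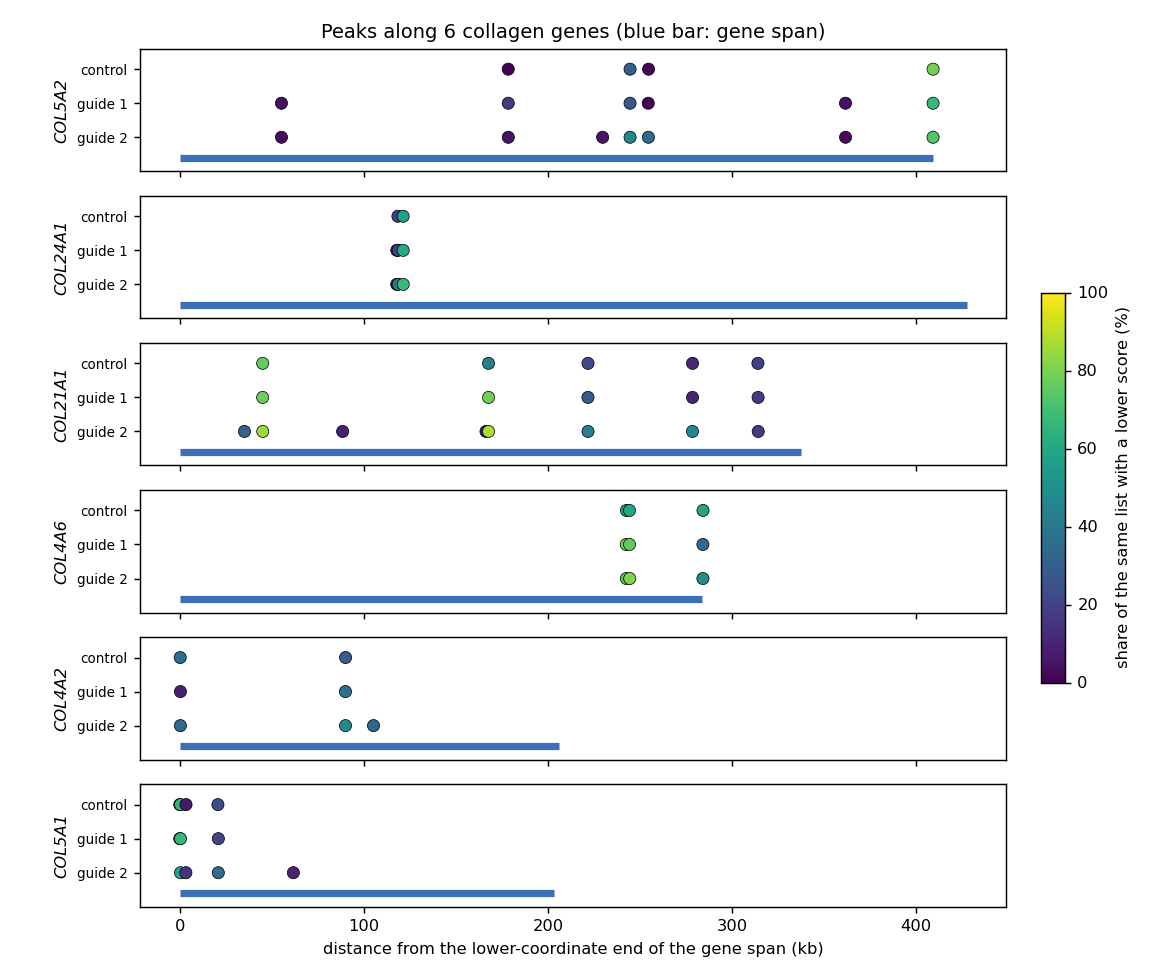
Peaks along 6 collagen genes. The x axis is the distance in kb from the lower-coordinate end of the gene, the blue bar the gene span, each row of circles a library, and the colour the share of the same list with a lower score in percent. COL21A1 and COL24A1 have peaks far inside and none at their ends, and COL5A2 has peaks 54933 and 361748 bp from its lower end in guide 1, also in guide 2, and none there in control.

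Merging the peaks of the 3 lists gave 57 regions at collagen genes, within 10 kb of an end or inside the span, from 44 peaks in control, 39 in guide 1 and 51 in guide 2. Of the regions 34 (59.6%) were in all lists, against 70.7% of the 16040 regions at protein-coding genes. Control alone held 5 (8.77%, background 5.98%), both guides without control 3 (5.26%, background 4.16%), guide 2 alone 9 (15.8%, background 8.48%) and guide 1 alone 1 (1.75%, background 1.55%). The remaining 4 were in control and guide 2 and 1 in control and guide 1 (backgrounds 7.5% and 1.64%). With each list limited to its 16811 highest-scoring peaks, 32 regions were in all lists, 2 in control alone, 1 in both guides without control, 5 in guide 1 alone and 3 in guide 2 alone. The guide 1 list has 16811 peaks in all, so this cut removed weak peaks from control and guide 2 only. In guide 2 it removed the peaks of all 3 regions of both guides (above 2.79% to 5.09%), which then counted under guide 1 alone. So did a COL5A2 region of all lists that lost its control and guide 2 peaks (above 0.0388% and 5.09%). The 1 region then in both guides without control was another COL5A2 region of all lists, whose control peak (above 0.949%) was removed. The order of guide 1 alone and guide 2 alone turned, and the regions at protein-coding genes then had shares of 71.3%, 6.47%, 3.98%, 4.22% and 4.8%. These counts are small, and each region counts once although a gene can hold several.

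By class, all 5 control-only regions lay at other types: 2 at COL8A1, and 1 each at COL6A1, COL20A1 and COL23A1. That of COL6A1 (chr21:45973878-45974078) scored above 0.0388% of the control list, and that of COL23A1 above 36.3%. All 3 regions of both guides without control lay inside the spans of fibrillar genes, 2 in COL5A2, whose span takes in predicted transcripts, and 1 in COL24A1. Those of COL5A2 were at chr2:189086684-189086984 (above 3.72% of the guide 1 and 2.79% of the guide 2 list) and chr2:189393502-189393791 (above 4.63% and 2.79%). The basement membrane genes had 5 of 6 regions in all lists and 1 in guide 2 alone. Fibrillar genes had 12 of 19 in all lists and other genes 17 of 32. All 8 regions scored below the median of their lists. Those of control alone scored above 0.0388% to 36.3% of the control list, with a median of 2.24%, and those of both guides above 3.72% to 5.61% of the guide 1 list. Across the 34 shared regions the control shares ran from 0.0388% to 88.8% with a median of 39.5%. The COL24A1 region of both guides (chr1:85846632-85847092) lay within 500 bp of a region held by all lists, as did the control-only region near COL23A1 (chr5:178232178-178232386).

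**Figure D4:**
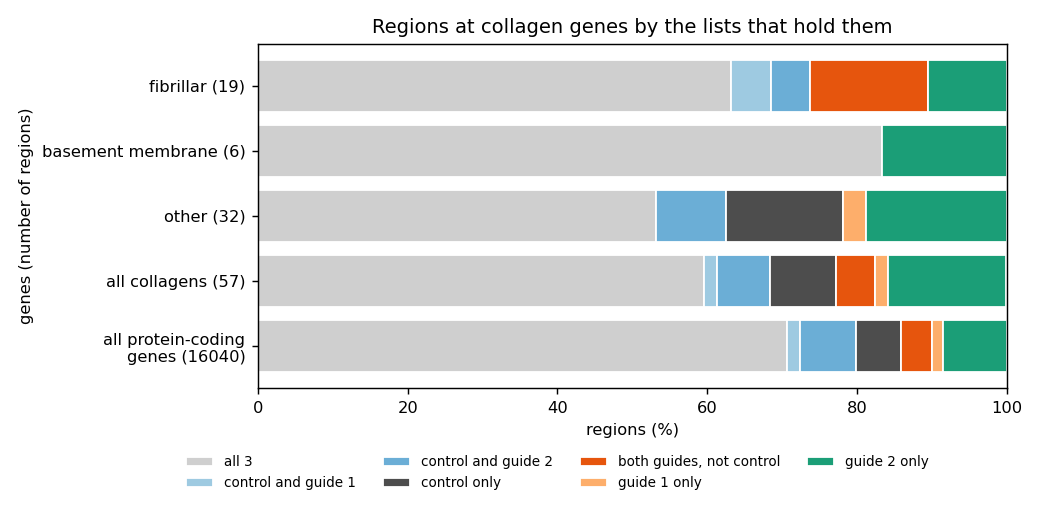
Regions at collagen genes by the lists that hold them, in percent of the regions of each class (number in brackets), beside all regions at protein-coding genes. Regions in all 3 lists make up 63.2% at fibrillar, 83.3% at basement membrane and 53.1% at other collagen genes, against 70.7% at protein-coding genes.

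The genes whose products modify, fold, cut, cross-link, bind or degrade collagen were marked in shares that varied with their role. Of 44 such partner genes the control list marked 31 (70.5%), and each guide marked 27 (61.4%). The same 27 were marked in every list, beside 52.3% of protein-coding genes. By role, 11 of 13 modifying enzymes, 4 of 5 folding and export genes and 4 of 5 cross-linking genes were marked in all lists. Of the propeptide-removing genes 3 of 8 were (37.5%), of the receptors 3 of 7 (42.9%) and of the collagen-degrading enzymes 2 of 6 (33.3%), beside 38.6% of the collagens. None of these differences was tested. The highest control scores were at LOXL2, a lysyl oxidase gene that cross-links collagen, whose peak scored above 97.5%, 96.3% and 97.6% of the control, guide 1 and guide 2 lists. P4HA1, a chain of prolyl 4-hydroxylase, followed with 97.3%, 95.2% and 97.3%, and PLOD1, a lysyl hydroxylase gene, with 91.6%, 88.7% and 91.6%. FKBP10, a collagen chaperone gene, and its neighbour P3H4 shared a peak above 89.9%, 91.8% and 85.8%, which lay 113 bp from FKBP10 and 942 bp from P3H4 in control. These peaks had been picked for their control scores. They ranked above the peaks at the starts of COL4A1, COL5A1 and COL12A1, and at the lower end of COL1A2, in every list. Not every collagen peak ranked below them. The COL16A1 peak inside the gene, above 80.2%, 79% and 92.6%, outranked PLOD1 and the FKBP10 peak in guide 2. A peak inside COL21A1 (chr6:56223925-56224401, above 87.7% in guide 2) outranked the FKBP10 peak there. The peak near COL8A2, closest to ADPRS, outranked PLOD1 and the FKBP10 peak in guide 1 (94.8%) and guide 2 (94.9%).

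The 4 partner genes whose marking differed between lists, P4HA2, BMP1, DDR1 and MMP9, were marked in control alone, a state that 1.44% of protein-coding genes had. The peak of P4HA2, another prolyl 4-hydroxylase chain, was 63 bp from its end and scored above 47.2% of the control list. That of BMP1, the protease that removes the C-terminal propeptide of fibrillar collagens, was 28 bp from its end and scored above 41.3%. The peak near the collagen receptor gene DDR1 lay 368 bp from GTF2H4, and that near MMP9 lay 65 bp from SLC12A5, each closer to that gene. All 4 scored below the median of the control list.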

How the data were processed

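Peak lists of 3 anti-IRF3 libraries were used, with groups taken from the label that names the guide RNA. Bowtie2 2.2.2.6, MACS2 2.1.0 and build hg38 are named without settings, per the submitters' processing notes. Use of an input library or of read filters is not stated. The authors deposited positions and a score per peak without a stated scale. It was used only to rank peaks within a list.

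Gene spans came from RefSeq (GRCh38.p14), whose table gives no strand. Strand and start sites came from RefSeq promoter entries (250 bases before to 50 after the start), using the entry nearest the 5′ end of the span. Of the 44 collagen genes, 32 (72.7%) matched an entry. COL1A1, COL1A2, COL2A1, COL3A1, COL5A2, COL6A1, COL6A5, COL8A1, COL9A3, COL14A1, COL20A1 and COL22A1 did not. Because fewer than 80% matched, a check of motifs, base composition or promoter overlap over the whole set is void, and single promoters are described.

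A gene was marked when at least 1 base of a peak was no more than 10 kb from an end. Peaks inside were counted by midpoint. Peaks of the lists that overlapped or touched were merged. The closest gene is the protein-coding gene with an end nearest the peak midpoint. Marking and merging were tested on simulated peaks. Python 3.11.15 and pandas 2.3.3 were used. No test was made between libraries.

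Any collagen gene could be named. Scores are given for genes marked in all lists, genes whose marking differs and regions of control or both guides alone. Partner genes were named where marking differs or among the 5 highest control scores. The members and gene lists were chosen with earlier results of these data known. Alternatives were windows of 2 and 50 kb, gene starts only, the closest gene end alone, peaks not below the median score, lists of equal length, 50% reciprocal overlap, joining within 500 bp and 1 guide at a time.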

Additional observations from a re-analysis of the deposited data

How the results depend on the processing

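No paired analysis was possible because each group held 1 library and no result came from a test. Read depth is unknown, so a missing peak is not absent binding, and guide 2 has the longest list. Of 87 values under the alternatives, 39 stayed within 1.5 times the value reported and 48 did not. Those 48 are given here, and their cause was not tested beyond what each setting leaves out. Marked collagen genes numbered 11 in control, 10 in guide 1, 10 in guide 2 and 10 in all lists at 2 kb (all protein-coding genes: 48.4%, 45.3%, 47.7% and 44.2%), with 3 fibrillar and 3 other genes in all lists. At 50 kb they numbered 32, 29, 31 and 28 (74.5%, 72.7%, 74.8% and 71.6%), with 16 other genes. With peaks at or above the median score they numbered 9, 7, 8 and 6 (43%, 38.7%, 41.8% and 36.3%), of which 3 were fibrillar, 0 basement membrane and 3 other. With a peak given only to the closest gene end they numbered 9, 8, 9 and 7 (44.7%, 41.4%, 44.2% and 39.2%), the last being 3 fibrillar, 1 basement membrane and 3 other. The type 4 genes kept 4 of 6 in all lists at 2 kb.

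Regions in control and guide 1 numbered 2 with reciprocal overlap. With peaks within 500 bp joined they numbered 0, those in control and guide 2 numbered 2 and those in guide 1 alone 0. With peaks at or above the median score, 12 regions were in all lists, 2 in control alone, 2 in guide 2 alone, 0 in control and guide 1 and 0 in control and guide 2. No region held by control alone or guide 2 alone in the full lists scored that high. Those counted here under control alone or guide 2 alone therefore also had a peak below the cut in another list. In lists of 16811 peaks each, 2 regions were in control alone, 1 in both guides without control, 5 in guide 1 alone and 3 in guide 2 alone. The 1 in both guides without control was held by all lists before the cut. The lead of guide 2 alone in the deposited lists was not kept, but this cut left the guide 1 list whole and shortened the others. Control regions absent from guide 1 numbered 9, and guide 2 regions absent from control 12. Genes with a peak inside, over 10 kb from both ends, numbered 4, 4, 5 and 4 in control, guide 1, guide 2 and all lists with peaks at or above the median. Without COL5A2 and COL21A1, chosen after seeing the data, inner peaks per Mb were 2.05 in guide 1 and 2.98 in guide 2. Partner genes marked with peaks at or above the median score numbered 16 in all lists and 20 in control. Among genes with a promoter entry, 11 were marked at either end and 8 at the start.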
